A study of Mus musculus with 4 samples.

Results

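The solute carriers, whose gene symbols begin with Slc and a family number, are membrane proteins that move amino acids, sugars, nucleosides, vitamins, metals and inorganic ions across the membranes of the cell and its organelles. They were taken here as all genes whose symbol starts in this way among the probe sets that the array's annotation ties to a single gene. This gave 151 of 8251 named genes on the array, from 185 probe sets and 40 family numbers. Each gene was represented by its brightest probe set, the one with the highest mean intensity over the 4 arrays. Of the 151 genes, 3 encode proteins that bind carriers and are not carriers themselves (Slc4a1ap, Slc9a3r1 and Slc9a3r2).

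RNA came from a clone of mouse Th1 cells, the CD4 helper T cells that secrete interferon gamma. The comparison sets control arrays 1 and 2, from the normal, quiescent clone, against anergic arrays 1 and 2, from the clone after anergy had been induced with an anti-CD3 antibody bound to the plate. Anergy is a lasting unresponsiveness that follows a T cell receptor signal received without costimulation. By this description all arrays carry T cells of a clonal line and not a mixed population from an animal. Whether RNA of other cells was present was not tested. The labels do not say whether 2 arrays of a group stem from separate cultures, so the spread between them may be technical.

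A T cell that starts to grow needs more glucose, amino acids, nucleosides and folate than a resting one, and it raises the carriers that import them. Known examples are the glucose transporter GLUT1, encoded by Slc2a1, and the large neutral amino acid transporter LAT1, a pair of chains encoded by Slc7a5 and Slc3a2. Most carriers run on gradients set up by ion pumps, such as the sodium-potassium ATPase and the proton pump of lysosomes, and some need a partner protein to reach the membrane.

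Intensities were deposited on a scale shared by the arrays, with median intensities between 134 and 191. Control array 2 stood apart: the geometric mean of 9 bacterial spike-in probe sets was 1972 there and between 870 and 1014 on the other arrays, and its Gapdh and Actb control probe sets were also the highest. Across 5583 genes above the filter on low values, limma with Benjamini-Hochberg adjustment called 74 higher and 47 lower in anergic cells at an adjusted p under 0.05. With each array centred on its median these numbers were 46 and 13, and the median log2 difference of all genes moved from -0.085 to 0.021. Of 10 T cell markers measured, 0 passed in limma, and Cd3d (adjusted p = 0.361) and Ifng (adjusted p = 0.132) had an unadjusted p under 0.05 with higher values in anergic cells. Their summed intensity was between 43501 and 51538 in control and between 44135 and 49224 in anergic cells.

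Of the 151 solute carrier genes, 91 passed the filter and were tested. Among them 2 rose in anergic cells, Slc12a4 and Slc29a1, where 1.33% of all genes tested rose, and 1 fell, Slc19a1, where 0.842% of all genes fell. Together these 3 genes are 3.3% of the tested carriers, against 2.17% of all genes. The other 88 did not pass. At an unadjusted p under 0.05, 6 carriers were higher (all genes 6.32%) and 5 lower (6.39%). The set of carriers that passed changed in fits without control array 1, control array 2 or anergic array 1. Without a control array limma estimated 1 spread for all genes of an intensity. Calls from those fits are therefore not comparable with calls from all 4 arrays. The median log2 difference of the 91 genes was -0.082, beside -0.085 over all genes tested. The median of the tested carriers was -0.17 without control array 1, beside -0.14 over all genes. Without control array 2 it was 0.076, beside -0.026. It was 0.087 without anergic array 1, beside 0.0063, and -0.071 without anergic array 2, beside -0.15. Most differences were small: 65 of 91 lay within 0.5 of 0 on the log2 scale and 82 within 1. Both anergic arrays were above both control arrays in 18 carriers, or 19.8% of those tested, beside 17.2% of all genes, and below them in 17, or 18.7%, beside 24%. The 35 carriers without overlap were 38.5% of those tested, beside 41.2% of all genes.

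**Figure D1:**
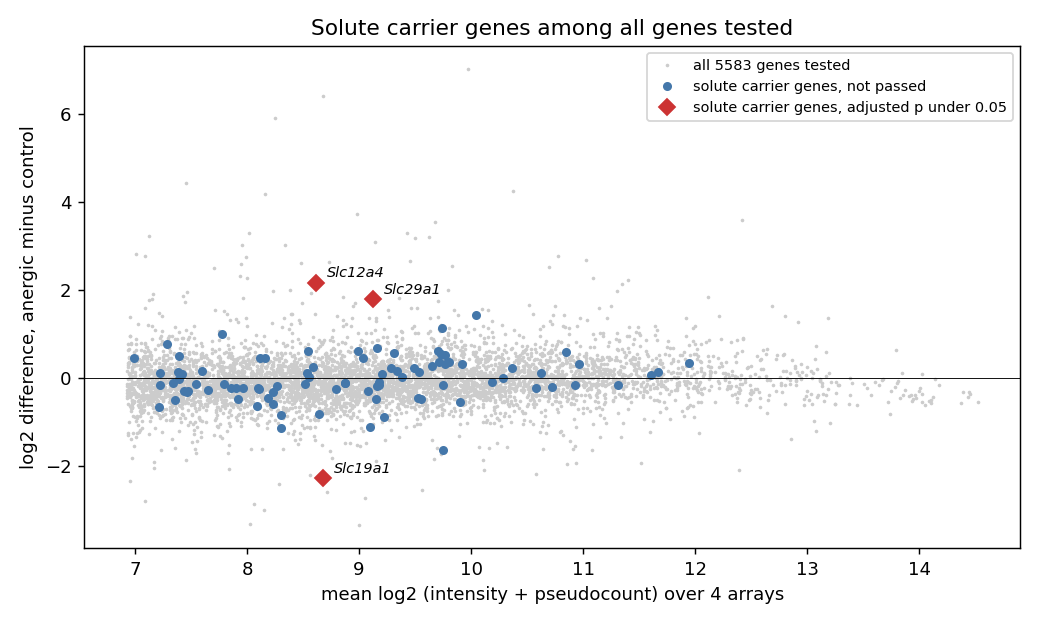
Log2 difference (anergic minus control, vertical axis) against the mean log2 of intensity plus pseudocount over the 4 arrays (horizontal axis). Grey points are all 5583 genes tested, blue points the 88 solute carrier genes that did not pass, and red diamonds the 3 that did. The carriers lie around 0 along the whole range of intensity, with Slc12a4 and Slc29a1 above and Slc19a1 below.

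The potassium-chloride cotransporter KCC1, encoded by Slc12a4, lets potassium and chloride leave the cell and takes part in the control of cell volume. Its gene read 168 and 145 on control arrays 1 and 2, and 870 and 739 on anergic arrays 1 and 2. Both anergic values were thus far above both control values. The means were 156 ± 16 and 805 ± 92.3 (SD, n = 2 each), a ratio of 5.15. The log2 difference was 2.17 ± 0.31 (SE, as after every log2 difference, adjusted p = 0.00641). Without anergic array 1 it was 2.05 and no longer passed (adjusted p = 0.0639).

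Slc29a1 encodes ENT1, an equilibrative nucleoside transporter that passes adenosine, uridine and other nucleosides down their gradient. It read 234 and 310 in control cells and 1096 and 926 in anergic cells, so the groups were well separated. The means were 272 ± 53.7 and 1011 ± 120.0 (SD, n = 2 each), and the log2 difference was 1.79 ± 0.30 (SE, adjusted p = 0.0136). Its other probe set went the opposite way. That probe set read 169 and 232 in control and 140 and 22.1 in anergic cells, a log2 difference of -1.29 ± 0.61 (SE) that did not pass over all 7453 probe sets tested (adjusted p = 0.493), of which 0.912% rose, 0.429% fell and 1.34% did either. The name of the second probe set carries the suffix r, which on this array type marks sets for which some probe selection rules were dropped. With the mean of both probe sets the difference was 0.25 (adjusted p = 0.879). The call was also lost without anergic array 1 (1.68, adjusted p = 0.136) and without the intensity trend in the estimate of the spread (1.79, adjusted p = 0.0557).

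Slc19a1, the gene of the reduced folate carrier that imports folate for nucleotide synthesis, fell. It read 735 and 1034 in control cells, and 178 and 138 in anergic cells. Both control values exceeded the anergic ones several times over. The means were 884 ± 211 and 158 ± 28.4 (SD, n = 2 each), a ratio of control to anergic of 5.60. The log2 difference was -2.28 ± 0.33 (SE, adjusted p = 0.00641). The second probe set, whose suffix f marks probes shared within a gene family, read 363 and 327 in control and 205 and 309 in anergic cells. Its difference had the same sign but was smaller (-0.41 ± 0.34, SE). With the mean of both the value was -1.34 and just missed the threshold (adjusted p = 0.0511).

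Stretches of 250 bases before the transcription starts of these 3 genes, and of Slc20a1, follow from RefSeq in the build GRCm38.p6, each at the most upstream start listed. They are shown because these are the 2 tested carriers with the largest difference in each direction, and they can be compared for short motifs. Capitals mark GGGCGG, the GC-box read by Sp-family factors, and CACGTG, the E-box read by Myc and its relatives, on either strand. The stretches are chr8:105966116-105966365 (minus strand) for Slc12a4, chr17:45599619-45599868 (minus strand) for Slc29a1, chr10:77032489-77032738 (plus strand) for Slc19a1 and chr2:129198523-129198772 (plus strand) for Slc20a1.
Slc12a4: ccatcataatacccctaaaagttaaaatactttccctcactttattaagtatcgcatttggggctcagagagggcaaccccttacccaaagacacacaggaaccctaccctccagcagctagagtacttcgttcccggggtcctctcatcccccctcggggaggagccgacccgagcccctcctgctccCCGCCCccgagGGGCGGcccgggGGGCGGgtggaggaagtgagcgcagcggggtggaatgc
Slc29a1: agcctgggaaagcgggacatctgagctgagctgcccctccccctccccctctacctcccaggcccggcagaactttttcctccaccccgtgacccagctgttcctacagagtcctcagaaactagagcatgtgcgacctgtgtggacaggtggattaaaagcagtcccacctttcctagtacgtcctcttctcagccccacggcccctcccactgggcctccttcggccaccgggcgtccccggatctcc
Slc19a1: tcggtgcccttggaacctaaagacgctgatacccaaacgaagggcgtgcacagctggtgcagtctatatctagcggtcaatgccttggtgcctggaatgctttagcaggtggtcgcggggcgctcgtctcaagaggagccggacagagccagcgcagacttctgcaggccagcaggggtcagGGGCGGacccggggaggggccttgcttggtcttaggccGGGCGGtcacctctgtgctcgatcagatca
Slc20a1: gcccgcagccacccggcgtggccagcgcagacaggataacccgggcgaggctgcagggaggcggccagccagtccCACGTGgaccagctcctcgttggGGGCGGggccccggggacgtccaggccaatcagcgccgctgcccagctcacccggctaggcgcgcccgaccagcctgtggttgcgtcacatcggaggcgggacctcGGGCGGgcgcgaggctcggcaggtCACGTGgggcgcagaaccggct

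The stretch of Slc12a4 held 3 GC-boxes and that of Slc19a1 held 2, while the one of Slc29a1 held neither motif. The stretch of Slc20a1 held 2 E-boxes and 2 GC-boxes and had a GC content of 75.2%, against 60.8% to 62.4% in the other 3. For 73 of the 91 tested carriers a stretch was listed. An E-box stood in 6 of these (8.22%), beside 9.23% of 4528 tested genes and 6.04% of all 27025 genes listed. A GC-box stood in 46 (63%), beside 59.6% and 33%. The table lists 8 starts for Slc29a1 and 2 each for Slc19a1 and Slc20a1, and the arrays do not show which start was used.

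**Figure D2:**
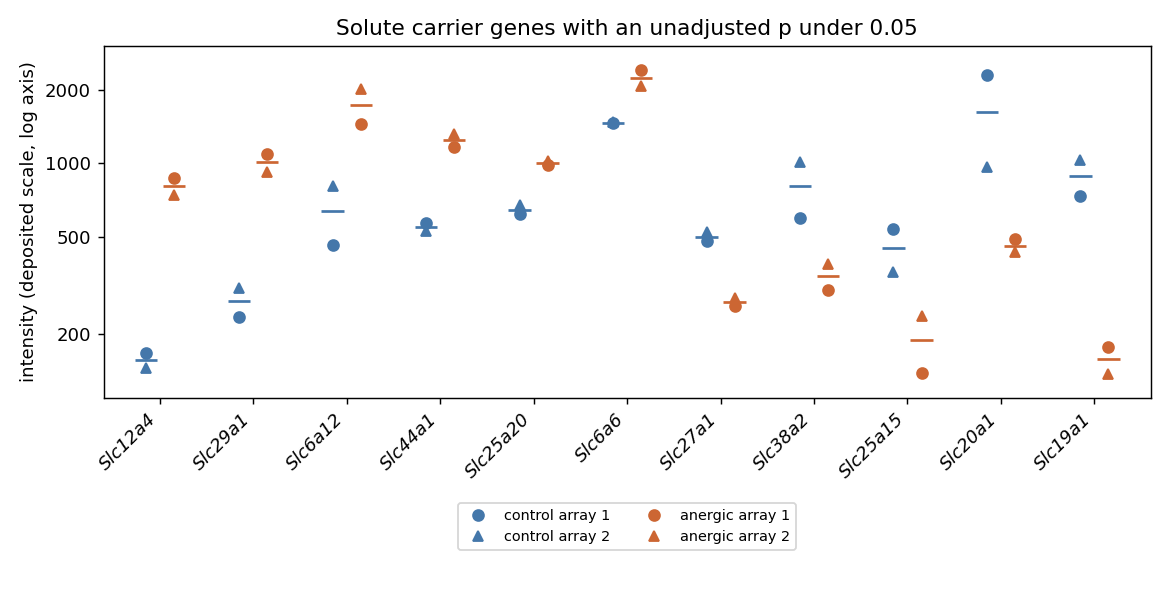
Deposited intensity (log axis) of the 11 tested solute carrier genes with an unadjusted p under 0.05, ordered by log2 difference. Blue marks are control and orange marks anergic arrays, circles array 1 and triangles array 2, and the short lines are group means. The groups are separated in each gene shown, and control array 1 stands far above control array 2 in Slc20a1.

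Among carriers of inorganic ions and protons, 7 of 20 genes were tested, Slc12a4 rose and 6 did not pass. Slc20a1, which encodes the sodium-phosphate cotransporter PiT-1, had the largest difference among them. It read 2288 and 965 in control cells and 489 and 432 in anergic cells. Both anergic values were lower, but control array 1 was far above control array 2. The log2 difference was -1.63 ± 0.38 (SE, adjusted p = 0.0655), with -2.24 without control array 2 and -1.02 without control array 1. Slc12a2, the gene of the sodium-potassium-chloride cotransporter NKCC1 that brings in the ions KCC1 lets out, read 561 and 867 in control and 1148 and 885 in anergic cells (0.51 ± 0.30, adjusted p = 0.567). The anion exchanger gene Slc4a2 was at 0.32 (adjusted p = 0.813), and its arrays overlapped.

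Nucleoside and vitamin carriers hold both Slc29a1 and Slc19a1. Of 7 such genes 4 were tested, and Slc23a2, the gene of an ascorbate transporter, read 319 and 362 in control and 229.7 and 203 in anergic cells (log2 difference -0.59, adjusted p = 0.548). Slc29a2, which encodes the related nucleoside transporter ENT2, lay below the filter with intensities of 16.3 and 20.2 in control and 16.8 and 21.5 in anergic cells. The proton-coupled folate transporter gene Slc46a1, named after its values were seen, also lay below it, at 31.7 and 15.8 against 5.4 and 12.1. The enzymes downstream of both carriers were measured as well. Of 6 tested genes of the folate cycle and thymidylate synthesis 0 passed, 0 had an unadjusted p under 0.05, and the median log2 difference was -0.13. Of 12 nucleoside salvage genes 0 passed. At an unadjusted p under 0.05, where 6.32% of all genes were higher and 6.39% lower, 0 were higher and 2 lower. These, named after their values were seen, were Uck2, a uridine-cytidine kinase gene (1010 and 1030 against 463 and 468, adjusted p = 0.0823), and Ada, the adenosine deaminase gene (125 and 408 against 51.6 and 93.6).

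The families that hold the amino acid carriers were the largest group, with 18 of 33 genes tested and 0 passed. The group was set by family number, so it also counts the monoamine transporter genes Slc6a2, Slc6a3 and Slc6a4, the peptide carrier gene Slc15a2 and the creatine transporter gene Slc6a8. At an unadjusted p under 0.05, 2 were higher and 1 lower, beside 6.32% and 6.39% of all genes. The median log2 difference was -0.17. Slc6a12, whose product imports betaine and GABA and serves as an osmolyte carrier, came closest to the threshold of all carriers that missed it. It read 465 and 809 in control cells and 1455 and 2010 in anergic cells, with no overlap. The log2 difference was 1.43 ± 0.32 (SE, adjusted p = 0.0544). Slc6a12 differed by 1.05 without control array 1 and by 1.82 without control array 2. The values were 1.66 without anergic array 1 and 1.21 without anergic array 2. The neighbour of Slc6a12 in the genome, Slc6a13, encodes the GABA transporter GAT2 and had a difference of the opposite sign. It read 536 and 1150 in control cells and 299.8 and 556 in anergic cells, and its arrays overlapped (-0.90 ± 0.41, SE, adjusted p = 0.409). The value was -1.43 without control array 1 and -0.36 without control array 2. Slc6a6, the taurine transporter gene, read 1466 and 1472 in control and 2417 and 2069 in anergic cells (0.60 ± 0.24, adjusted p = 0.315).

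Slc38a2, whose product SNAT2 imports glutamine, alanine and other small neutral amino acids, was lower in both anergic arrays. It read 595 and 1016 in control cells and 302 and 389 in anergic cells (-1.12 ± 0.34, adjusted p = 0.161). The difference was -1.49 without control array 1 and -0.75 without control array 2. Slc7a5, which encodes the transporting chain of LAT1, read 736 and 623 in control and 736 and 766 in anergic cells, a log2 difference of 0.14 ± 0.27 (adjusted p = 0.909). Its partner chain CD98, encoded by Slc3a2, differed between arrays of unlike number more than between groups. Slc3a2 read 4465 and 2034 on control arrays 1 and 2, and 4248 and 2352 on anergic arrays 1 and 2, a log2 difference of 0.068 whose sign turned with quantile normalization. The glutamine transporter gene Slc1a5 was at 544 ± 40.6 and 583 ± 47.9 (SD, n = 2 each; adjusted p = 0.946). Below the filter were Slc7a1, the gene of a cationic amino acid transporter, with 10 to 11.9 on the 4 arrays, and the cystine-glutamate exchanger gene Slc7a11, with 12.1 to 65.2. Of 9 tested genes of the amino acid response, such as Atf4, 0 passed and 0 had an unadjusted p under 0.05.

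The glucose carriers did not pass. Slc2a1, the GLUT1 gene, read 469 and 1038 in control cells and 1112 and 652 in anergic cells, so the arrays of a group lay much farther apart than the group means of 753 and 882 (0.27 ± 0.40, adjusted p = 0.881). Its sign turned without control array 1 (-0.28) and without anergic array 1 (-0.098). Slc2a3, the GLUT3 gene, read 508 and 300.3 in control and 328 and 127 in anergic cells (-0.83 ± 0.45, adjusted p = 0.514), with the same sign at its other probe set (-0.46). Of 10 genes in the sugar carrier families, a group also set by family number, 5 were tested, with 0 at an unadjusted p under 0.05. Of 7 monocarboxylate, citric acid cycle and bile acid carriers only the orphan carrier gene Slc10a3 was tested (0.35, adjusted p = 0.70). The lactate transporter gene Slc16a1 stayed below the filter, with 24.2 to 67.5 over the 4 arrays.

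Most carriers of family 25 sit in the inner mitochondrial membrane and exchange metabolites and nucleotides between mitochondrion and cytosol. Of 20 genes with this family number 16 were tested, 0 passed, and 1 was higher and 1 lower at an unadjusted p under 0.05. Over all genes, 6.32% were higher and 6.39% lower at that p. Slc25a20, whose product brings acylcarnitines into mitochondria for fatty acid oxidation, read 621 and 673 in control and 984 and 1022 in anergic cells. The arrays of a group lay close together, and the log2 difference was 0.61 ± 0.26 (SE, adjusted p = 0.366). Slc25a15, the ornithine carrier gene, read 537 and 361 in control and 139 and 238 in anergic cells (-1.15 ± 0.38, adjusted p = 0.211). The dicarboxylate carrier gene Slc25a10 read 211 and 70.7 against 437 and 179 (1.01 ± 0.54, adjusted p = 0.508). Of the genes of ADP/ATP carriers, Slc25a4 was at 2675 ± 370 and 2372 ± 185 (SD, n = 2 each), and Slc25a5 differed by -0.082 (0.024 after centring). The probe set used for Slc25a5 carries the suffix f, which marks probes shared within a gene family. Another tested probe set of Slc25a5, with the suffix r, was at -0.48. A further probe set below the filter read 61.3 and 64.4 in control and 78.1 and 99.1 in anergic cells. The probe set of the phosphate carrier gene Slc25a3 lay below the filter, with 28 to 67.6.

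In the small group of choline and fatty acid carriers 5 of 8 genes were tested and 0 passed. Slc44a1, which encodes the choline transporter CTL1 and so feeds phosphatidylcholine synthesis, read 571 and 527 in control and 1167 and 1315 in anergic cells. It was about as high above control on both anergic arrays, with a log2 difference of 1.13 ± 0.26 (SE, adjusted p = 0.0637). It passed without control array 1 (1.19, adjusted p = 0.0257) and without control array 2 (1.08, adjusted p = 0.0467), but not without anergic array 1 (1.22, adjusted p = 0.298) or anergic array 2 (1.05, adjusted p = 0.353). Slc44a2, a related gene named after its values were seen, read 335 and 523 against 603 and 569 (0.45 ± 0.32, adjusted p = 0.647). The fatty acid transport protein gene Slc27a1 went the other way, from 480.3 and 522 in control to 262 and 283 in anergic cells (-0.82 ± 0.31, adjusted p = 0.286).

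**Figure D3:**
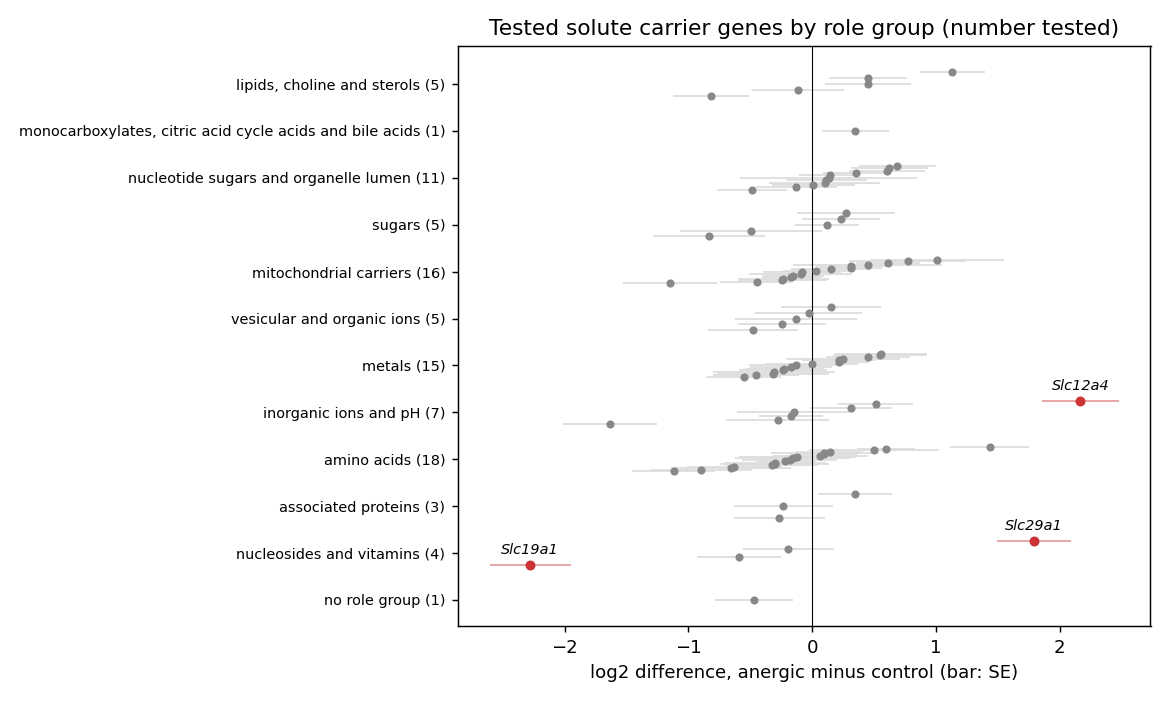
Log2 difference (anergic minus control) of each of the 91 tested solute carrier genes, with its SE as a bar, in rows by role group, ordered by the group's median, with the number tested in parentheses. Red points passed at an adjusted p under 0.05. The nucleoside and vitamin row holds a gene at each end, and the metal row lies between -0.55 and 0.56.

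Carriers of nucleotide sugars and other substrates of inner membranes had mostly positive differences. Of 11 tested genes 9 had a higher mean log2 value in anergic cells, beside 2338 of 5583 genes in all. The count was also 9 of 11 with quantile normalization, beside 2613 of 5581 genes, and with centring, beside 2919 of 5583. In limma 0 passed and 0 had an unadjusted p under 0.05. Some of the 9 were small beside their SE, so their signs say little. Examples, named after their values were seen, were Slc35e4 (0.0096 ± 0.34), Slc35a2 (0.10 ± 0.45) and Slc35g3 (0.13 ± 0.72). The count was not taken with single arrays left out. Slc35d1, whose product carries UDP-sugars for glycosylation, read 482 and 366 in control and 578 and 837 in anergic cells (0.69 ± 0.31, adjusted p = 0.402). Slc48a1, the gene of a haem transporter of lysosomes, read 277 and 268 in control and 443 and 428 in anergic cells (0.62 ± 0.31, adjusted p = 0.469). The orphan carrier gene Slc35e1 was at 388 ± 85.0 and 602 ± 77.7, with the same sign at its other probe set (0.31). In Slc35c2 both anergic arrays were lower (640.1 and 647 against 468 and 436).

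Metal carriers lay almost all above the filter, with 15 of 16 tested. Of the 15, 0 passed in limma, and 0 had an unadjusted p under 0.05. Their log2 differences lay between -0.55, in the zinc importer gene Slc39a1, and 0.56, in the copper importer gene Slc31a1. Slc39a1 read 1097 and 1157 in control and 579 and 993 in anergic cells. Slc11a2, which encodes the iron transporter DMT1, read 505 and 890 in control and 711 and 1394 in anergic cells (0.55 ± 0.38, adjusted p = 0.644), and its other probe set was at 0.65. Among 8 other genes of iron and zinc handling 0 passed. At an unadjusted p under 0.05, 2 were lower, beside 6.39% of all genes. The metallothionein genes Mt1 and Mt2, whose products bind zinc and which are named after their values were seen, had an unadjusted p under 0.05 and lower values in anergic cells. Mt1 read 5325 and 1809 in control and 1600 and 1378 in anergic cells, so control array 1 alone was far from the rest.

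Of 13 genes for vesicular and organic ion carriers, 5 were tested and 0 passed. The ends of the group were Slc22a12, a urate transporter gene (-0.48, adjusted p = 0.697), and the carnitine transporter gene Slc22a5 (0.16, adjusted p = 0.932). Slc22a5 turned sign without anergic array 2 (-0.0075). The 3 genes of carrier-binding proteins did not pass either, among them, named after its values were seen, the scaffold gene Slc9a3r1 with 4743 and 2523 in control and 4408 and 4400.4 in anergic cells. Slc66a2, which falls in no role group and is likewise named after its values were seen, was at -0.47 (adjusted p = 0.621).

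The 60 carrier genes below the filter had intensities of at most 206 on every array. When all 8251 genes were tested without the filter, 0 of these 60 passed in limma, where 1.1% of all genes did, 6 had an unadjusted p under 0.05, and the lowest adjusted p was 0.145. That gene was Slc5a1, chosen here after its values were seen, which encodes the sodium-glucose cotransporter SGLT1. It read 4.8 and 5.7 in control cells and 34.1 and 50 in anergic cells. Also among the 6, and likewise named after their values were seen, were Slc1a4, Slc6a8, Slc1a2, Slc22a30 and Slc10a2. The neutral amino acid transporter gene Slc1a4 read 31 and 63.7 in control and 110 and 206 in anergic cells. The creatine transporter gene Slc6a8 read 19.5 and 44.9 against 93.4 and 103. Slc1a2 and Slc22a30 were higher on both anergic arrays as well. Slc10a2 went the other way, with 26.6 and 20.3 in control and 2.5 and 4.1 in anergic cells. The share of all genes under that unadjusted p was not counted without the filter. At such intensities a signal may come from background, and detection calls were not used.

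More than 1 probe set was present for 29 of the 151 genes. In 13 of these a second probe set passed the filter too, and it had the sign of the brightest in 8 and the opposite sign in 5. The opposite pairs were Slc29a1, Slc23a3, Slc25a1, Slc25a51 and Slc39a4. In the last 4 the value farthest from 0 was 0.31, at the brightest probe set of Slc25a1. Slc29a1 was the only gene among the 13 whose values lay more than 1 from 0 on both sides.

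**Figure D4:**
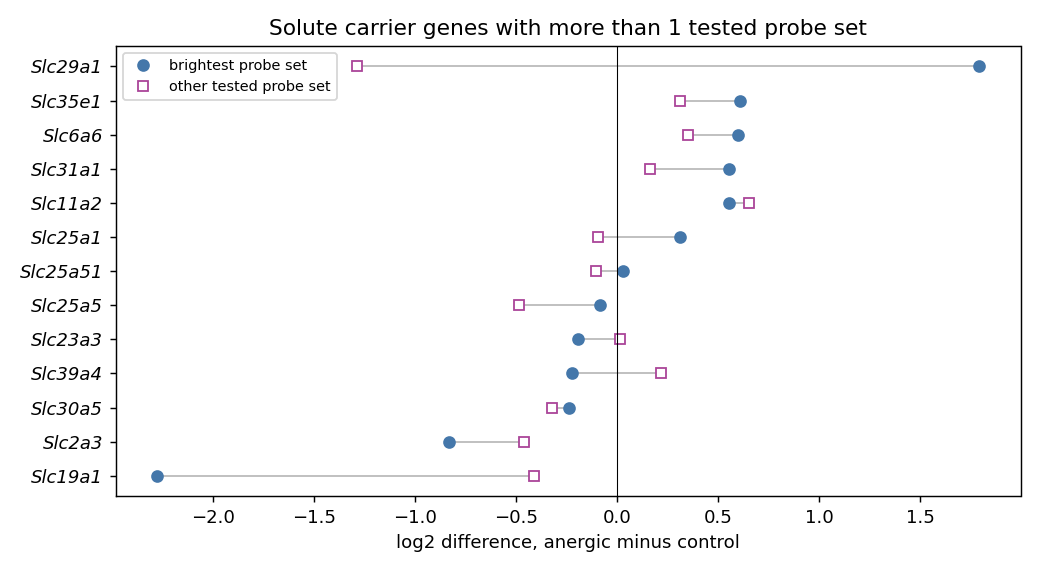
Log2 difference (anergic minus control, horizontal axis) of the brightest probe set (filled circle) and of the second tested probe set (open square) in the 13 solute carrier genes that have both. The square lies on the same side of 0 as the circle in 8 genes. Slc29a1 spans from -1.29 to 1.79, and Slc19a1 from -2.28 to -0.41.

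Genes outside the Slc families that act with carriers were counted in lists. These were chosen with earlier results of these data known, so their counts are a description and not a test. Of 8 tested partners and regulators of carriers, Pdzk1ip1 rose, Sgk1 and Txnip fell, and 5 did not pass. Over all genes tested, 2.17% rose or fell. Pdzk1ip1, whose product MAP17 is a small membrane protein that activates sodium-glucose cotransport, read 250 and 305 in control and 6274 and 5252 in anergic cells (log2 difference 4.24 ± 0.25, adjusted p = 2.41e-05), and it passed without any 1 of the arrays. The kinase gene Sgk1, whose product keeps several ion and amino acid carriers at the cell surface, read 2912 and 3844 in control and 818 and 1379 in anergic cells (-1.63 ± 0.30, adjusted p = 0.0216). Sgk1 did not pass with centring (-1.52, adjusted p = 0.123), after quantile normalization (-1.64, adjusted p = 0.0574), without the intensity trend (adjusted p = 0.133) or without anergic array 1 (-1.26, adjusted p = 0.205). Txnip, whose product promotes the uptake of glucose transporters from the cell surface into the cell, read 5102 and 4373 in control and 1943 and 2060 in anergic cells (-1.23 ± 0.23, adjusted p = 0.0231). Txnip did not pass with centring (adjusted p = 0.284), when its probe sets were averaged (-0.80, adjusted p = 0.188), without the trend (adjusted p = 0.146), or without anergic array 1 (adjusted p = 0.237) or 2 (adjusted p = 0.141). Bsg, the gene of basigin that escorts lactate transporters to the membrane, differed by -0.081 (adjusted p = 0.949).

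Transporters driven by ATP were set beside the carriers. Of 15 tested genes of the ATP-binding cassette families, Abcc1 rose, where 1.33% of all genes tested rose, and 14 did not pass. Abcc1, which encodes the exporter MRP1 of glutathione conjugates and leukotrienes, read 224 and 280.0 in control and 822 and 854 in anergic cells (1.63 ± 0.30, adjusted p = 0.0214). Abcc1 did not pass without the trend (adjusted p = 0.0641) or without anergic array 1 (adjusted p = 0.15) or 2 (adjusted p = 0.116). The only tested member of the Slco organic anion carriers was at 0.023. Of 11 tested ion pump genes 0 passed, and 1 was higher and 2 lower at an unadjusted p under 0.05. Over all genes, 6.32% were higher and 6.39% lower at that p. These 3 pump genes are named after their values were seen. The higher one was Atp6v1a, a subunit gene of the vacuolar proton pump, with 1646 and 1624 in control and 3294 and 3125 in anergic cells (0.96 ± 0.23, adjusted p = 0.0703). The calcium pump genes Atp2a3 (2669 and 2600.0 against 1490 and 1265) and Atp2a2 (289 and 332 against 189 and 124) were the lower ones.

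**Figure D5:**
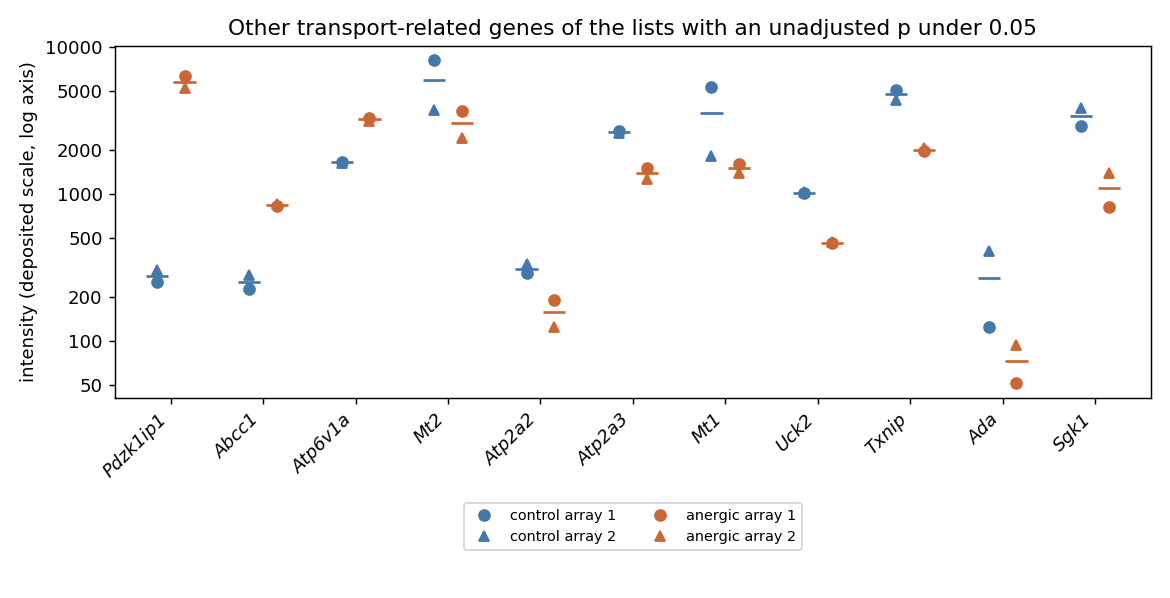
Deposited intensity (log axis) of the 11 genes outside the Slc families, from the transport lists, with an unadjusted p under 0.05. Blue marks are control and orange marks anergic arrays, circles array 1 and triangles array 2, and lines are group means. Pdzk1ip1 and Abcc1 passed upward and Txnip and Sgk1 downward, and control array 1 is far above control array 2 in Mt1 and Mt2.

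Markers of other cell types were read beside these results. In whole RNA, fewer cells of a type and less RNA per cell cannot be told apart. Of 5 tested macrophage and dendritic cell markers Cd68 rose, from 71 and 91.3 to 498 and 532 (adjusted p = 0.0105; 0.0639 without anergic array 1 and 0.066 without anergic array 2). The summed intensity of 10 measured markers was between 1507 and 2018 in control and between 1666 and 2260 in anergic cells. Much of it came from Cd14, with 764 and 932 in control and 684 and 858 in anergic cells. Without Cd68 the sums were 1436 and 1927 in control and 1168.5 and 1728 in anergic cells. Lyz2, below the filter, read 129 and 73.3 in control and 11.7 and 11.4 in anergic cells. Mpeg1 was lower in anergic cells at an unadjusted p of 0.0484 (adjusted p = 0.391). Adgre1 and Fcgr3 also lay below the filter but were higher on both anergic arrays. Adgre1 read 24 and 20.2 in control and 36.4 and 36.9 in anergic cells. Fcgr3 read 27.1 and 32.1 against 58.5 and 79.3. Marco and Msr1 lay below the filter too, and their arrays overlapped. Slc11a1, a metal transporter gene of macrophage phagosomes named after its values were seen, lay below the filter too, with 24.6 and 86.1 in control and 67.2 and 37.8 in anergic cells. None of the markers of B cells (5 tested), granulocytes and mast cells (3), erythroid cells and platelets (1) or fibroblasts (3) passed in limma, and none of these had an unadjusted p under 0.05. Summed over the measured markers of each type, intensities in control and anergic cells lay at 914 to 1797 and 756 to 1189 for B cells, and at 732 to 1042 and 472 to 868 for granulocytes and mast cells. They lay at 171 to 516 and 301 to 405 for erythroid cells and platelets. For fibroblasts they lay at 1926 to 2087 and 1582 to 2339. Most of the fibroblast sums came from Col1a2, with 1242 and 1412 in control and 1015.5 and 1584 in anergic cells. The part of other cells in the differences of the carriers was not tested.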

How the data were processed

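Gene expression was measured on 4 arrays, 2 of control and 2 of anergic Th1 cells, with biotin-labelled cRNA prepared from RNA extracted in Trizol (labels' protocols). The authors deposited a linear intensity for each of 12488 probe sets. Scanner software, background correction and probe summary were not given in the sources used here. Trimmed means (2% cut at each end) were 500.3 on every array, so the scale of the authors was kept (limit 1.1-fold). The number of arrays limits the precision.

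Genes were named from GEO's platform annotation. All 151 carrier symbols were found by gene ID in a RefSeq table of GRCm38.p6, with 0 changed. Of 12422 probe sets other than 66 controls, 10833 had 1 symbol, 396 several and 1193 were unlisted. A probe set with several symbols that include an Slc gene (1 case) was not used.

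Values were transformed as log2(intensity + 29.15), the pseudocount being the median of the arrays' 20th percentiles, so differences of dim genes are understated. Genes were tested when their mean log2 value exceeded the 40th percentile of probe sets. The fit was limma 3.58.1 in R 4.3.3 (lmFit, eBayes with an intensity trend), two-sided, adjusted by Benjamini-Hochberg over all 5583 genes at 0.05. Differences between probe sets come from the same fit over 7453 probe sets. An exact permutation test of 2 against 2 arrays cannot go below p = 0.333. Motifs and figures were made in Python 3.11.15.

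Named were the carriers that passed, the 8 next by p in each direction, a fixed set of T cell and housekeeping carriers, and the extremes of each of 10 role groups. The members and lists were chosen with earlier results of these data known. Alternatives changed the pseudocount, filter, scaling, choice of probe set, trend, replicate block and arrays used.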

Additional observations from a re-analysis of the deposited data

How the results depend on the processing

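With 14 alternatives, Slc12a4 and Slc19a1 passed in 13 each and Slc29a1 in 11. Carriers called higher and lower numbered 1 and 0 with the mean of the probe sets, 1 and 1 without the intensity trend, and 6 and 7 with the replicate block. Leaving out 1 array gave between 0 and 4 higher and between 1 and 3 lower. Over all genes the block called 354 higher and 366 lower, in place of 74 and 47. Leaving out control array 1 gave 157 and 113, and leaving out control array 2 gave 167 and 115. Without anergic array 1 the numbers were 29 and 24, and without the trend 29 and 12. Centring gave 46 and 13. The cause was not tested. Same-numbered arrays deviated together (r = 0.52 across 5583 genes, which are not independent replicates), but the labels tie the numbers to no shared culture or day, so the block stayed an alternative. It added Slc6a12 (1.43), Slc44a1 (1.13), Slc25a10 (1.01) and Slc6a6 (0.60) upward, and Slc20a1 (-1.63), Slc25a15 (-1.15), Slc38a2 (-1.12), Slc6a13 (-0.90), Slc2a3 (-0.83) and Slc27a1 (-0.82) downward. The median of the tested carriers was 0.0497 with the stricter filter and between -0.17 and 0.087 when 1 array was left out. Over the tested carriers, signs turned in 5 with quantile normalization, 4 with centring, 4 with the mean of the probe sets, 1 with the larger pseudocount, and 14, 22, 23 and 7 without control array 1, control array 2, anergic array 1 and anergic array 2, and 0 of these had passed. Among the carriers named by the rule they were Slc3a2 with quantile normalization (-0.0092), Slc25a5 with centring (0.024), and, over the fits without 1 array, Slc2a1 (-0.28 to 0.82), Slc25a5 (-0.40 to 0.23), Slc3a2 (-0.49 to 0.63), Slc22a5 (-0.0075 to 0.32) and Slc4a2 (-0.054 to 0.69). With 1 array in a group, that array is assumed to vary like the other group. Without a control array limma estimated 1 spread for all genes of an intensity (infinite prior degrees of freedom), so the p-values of those fits are smaller for a like difference. Signal over background limits what can be said of the 60 genes below the filter.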
